A study of Drosophila melanogaster with 96 samples.

Results

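Neuropeptide precursor genes encode the secreted peptides with which neurons and endocrine cells of the fly signal over a distance. The set was taken as a list of 33 gene symbols, and 32 of them were found among the 17698 genes of the deposited expression table. The remaining symbol, Gpa2, was not analysed here. Expression was measured in heads of adult Drosophila melanogaster, 3-5 days old at collection, as TPM, a relative abundance of each gene's transcripts corrected for their length, from stranded mRNA libraries. The 4 groups were female Achl RNAi, female control, male Achl RNAi and male control, named in the labels by genotype as Achl_RNAi or control. The sources used here give neither the driver of the RNAi nor the control construct, so neither the cells that carried the RNAi nor the background shared by both genotypes can be stated. All flies were entrained to light-dark cycles and then kept dark for 24 h before collections began. Heads were collected at steps of 2 h, from CT24 to CT70 in circadian time (CT), with 1 library at each step in each group, 24 libraries a group and 96 in all.

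A neuropeptide is cut from a larger precursor in the secretory pathway, often amidated at its end, stored in dense-core vesicles and released to act mostly on G protein-coupled receptors. In the fly head such peptides carry the time signal out of the clock neurons, set feeding, sleep and stress responses, and reach muscle, gut and renal tissue through the hemolymph. Several of them come from a small number of neurons, so that their precursor mRNA in a whole head is a readout of few cells.

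The library groups differed in ways that touch every result below. Achl, the RNAi target, had 10.1, 15.9 and 21.01 TPM (lowest, median and highest of 24 libraries) in female RNAi heads, against 29.4, 69.5 and 105 TPM in female control heads. In male RNAi heads it had 7.66, 22.2 and 33.8 TPM, against 16.6, 74.8 and 144 TPM in male control heads, and in each sex the RNAi library was the lower in 24 of 24 pairs of the same CT. Most genes were slightly lower in RNAi heads: the median log2 change over the 10568 tested genes was -0.18 in females and -0.16 in males. Changes are therefore also given centred, that is, relative to the median gene of each library. Female libraries fell into sets by the mitochondrial ribosomal RNA mt:lrRNA. It was below 50000 TPM in 15 female RNAi and 14 female control libraries, among them all 12 of each group from the second sampled day (CT48 to CT70, with CT24 to CT46 as the first), and in no male library. TPM carry no read counts, so depth is unknown and no counting error can be given. There were no replicates at a CT, so each p-value measures only how libraries scatter around the fitted courses. That scatter was estimated for each gene over the 4 groups together, so female and male changes share it. Female libraries of several members varied more than male ones. The standard deviation of AstC was 21.9% of its mean in female RNAi heads and 8.5% in male RNAi heads. For Gpb5 in controls it was 18.7% in females and 21.3% in males, the other way. Such differences in scatter between groups were not allowed for. In whole heads, fewer cells of a type and less RNA per cell cannot be told apart.

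Levels of the 32 genes spanned a wide range. Nplp2 was the most abundant, with a median of 16180 TPM in female RNAi heads, 16550 in female control heads, 8555 in male RNAi heads and 13640 in male control heads. It made up 81.8, 79.9, 64.6 and 71.1% of the summed TPM of the 32 genes in these groups, in the same order (medians). Nplp3 followed with medians of 2279, 2501, 2810 and 3364 TPM. No other member reached a median of 300 TPM in any group. Dsk, Ms, AstC and CCHa2 had group medians between 104 and 291 TPM, and the ranges of AstC and CCHa2 overlapped in every group. RYa, Lk and CCAP had medians between 1.11 and 4.74 TPM. In each group amn and AstCC had lower medians than these, and the plot of levels by group shows the other members between these ends.

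**Figure D1:**
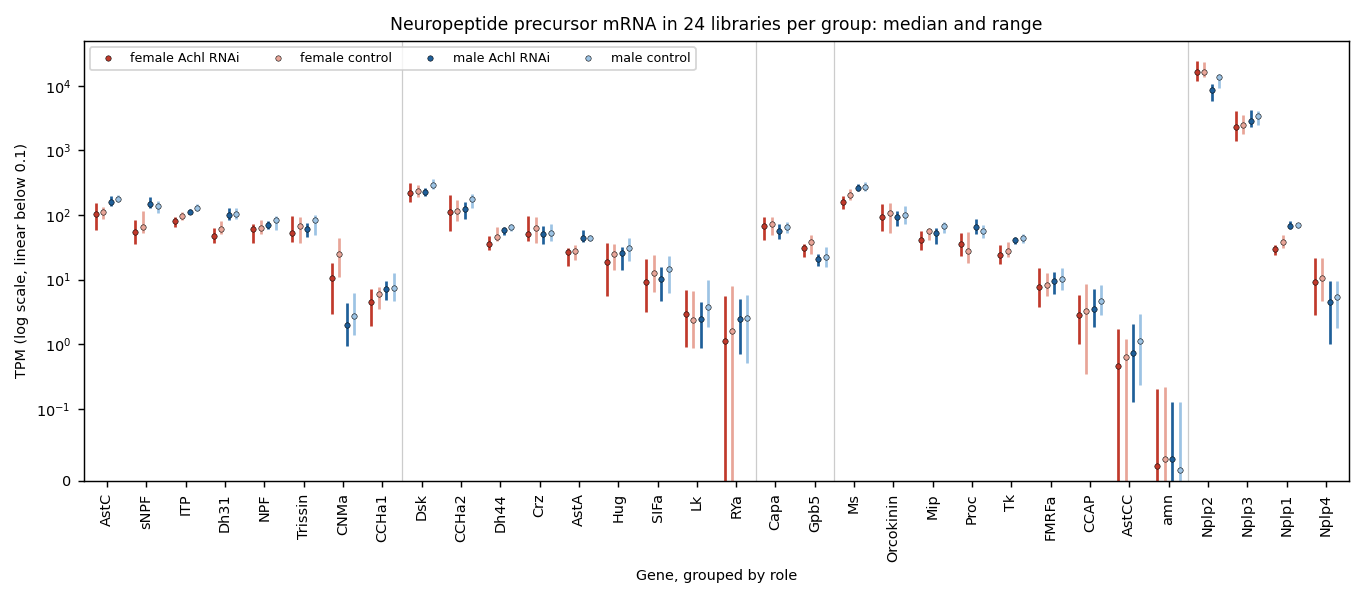
TPM of each of the 32 neuropeptide precursor genes (vertical axis, log scale that turns linear below 0.1) in female Achl RNAi, female control, male Achl RNAi and male control heads. Points are medians and lines run from the lowest to the highest of 24 libraries. Nplp2 and Nplp3 lie above all other genes, CNMa is higher in both female groups than in both male groups, and amn and AstCC lie near 0.

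Members were tested where they reached 1 TPM in at least 24 libraries, and 30 of the 32 did. The exceptions were amn, the memory gene amnesiac, which stayed at or below 0.22 TPM in every library, and AstCC, the allatostatin double C gene, which reached 1 TPM in 23 libraries. AstCC had medians of 0.46 TPM in female RNAi heads and 0.63 TPM in female control heads, and 0.74 TPM in male RNAi heads against 1.12 TPM in male control heads. The genes lie on several chromosome arms, with 13 of the 32 on 3R, 7 on 2L, 6 on 2R, 4 on 3L and amn on X. Nplp2 had an identifier that the annotation used here does not hold, and RefSeq places it on 3L at 13356376 to 13357223. Positions below are on dm6. Several members overlap another gene (Dsk, Dh44, Hug, Lk, Dh31, ITP, Tk, CCAP, SIFa and amn). Since the use of strand in the counting is not stated, reads there cannot be assigned with certainty.

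The first comparison asked what RNAi against Achl did to these mRNAs in each sex. In females 15 of the 30 tested members were lower in RNAi heads and 0 were higher, and in males 15 were lower and 1 was higher. Over all tested genes, 55.7% were lower and 4.70% higher in female RNAi heads, and 53.5% were lower and 4.61% higher in male RNAi heads. The median log2 change of the 30 members was -0.20 in females and -0.16 in males, beside -0.18 and -0.16 for all tested genes. After centring, 7 members were lower and 1 was higher in females, where 11% and 11.2% of all tested genes were. In males 7 were lower and 3 higher after centring, against 17.7% and 14.7% of all tested genes. The shares of members that were lower were near those of all tested genes in the uncentred fit.

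CNMa (chromosome 3L, 1850915 to 1855591) had the largest log2 change of the 30 in females. It encodes CNMamide, the ligand of the receptor CNMaR. It had 2.98, 10.8 and 18.4 TPM (lowest, median and highest) in female RNAi heads, against 11.02, 24.8 and 44.6 TPM in female control heads. The RNAi library was the lower in 24 of 24 pairs of the same CT, although the ranges of the groups overlapped. The log2 change was -1.36 (SE 0.13, limma, adjusted p = 1.5e-15), and centred it was -1.20 (adjusted p = 9.6e-12). The change was -1.66 on the first day and -1.07 on the second, and -1.24 and -1.52 within the female libraries below and above 50000 TPM of mt:lrRNA. In males CNMa was scarce, with 0.95, 2.02 and 4.29 TPM in RNAi heads against 1.39, 2.78 and 6.21 TPM in control heads, and these groups overlapped over most of their range. The male change was -0.32 (SE 0.13, adjusted p = 0.028), but it did not pass once centred (-0.16, adjusted p = 0.38). By day it was -0.64 on the first and 0.0066 on the second, so the male call rests on the first day.

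**Figure D2:**
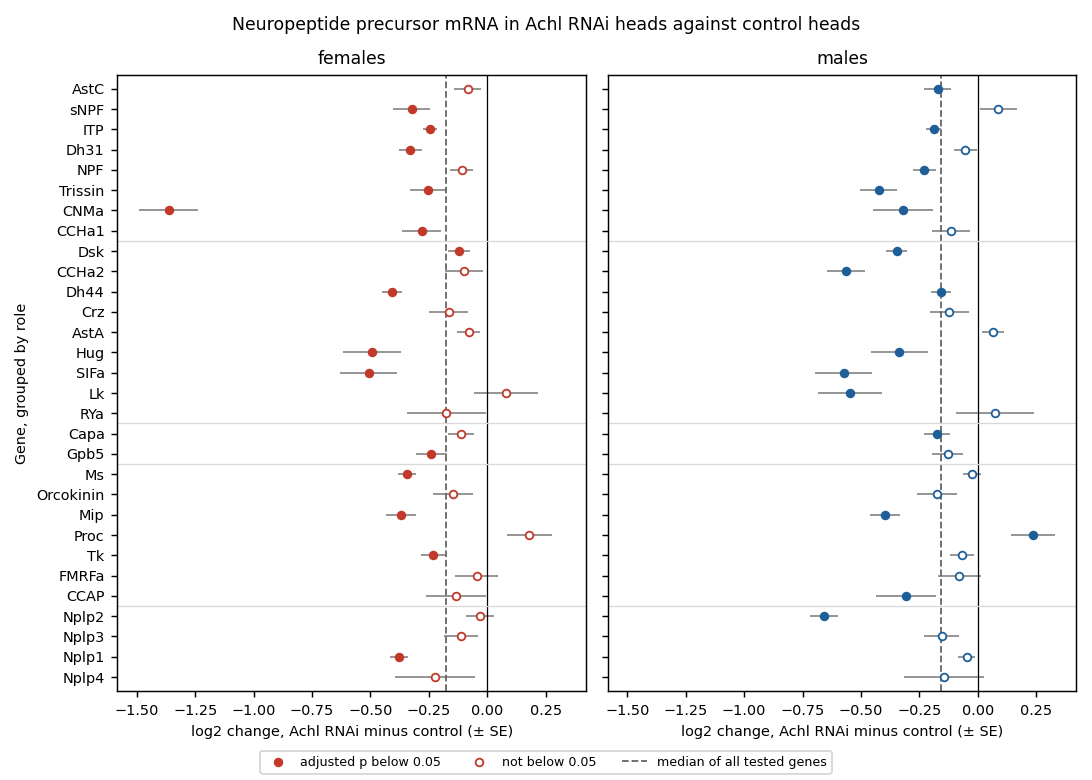
Log2 change (horizontal axis, RNAi minus control, with SE) of the 30 tested genes in females and males. Filled points passed the test at an adjusted p of 0.05, and the dashed line is the median of all tested genes, -0.18 in females and -0.16 in males. CNMa in females and Nplp2, SIFa, CCHa2 and Lk in males lie farthest to the left, and Proc lies to the right of 0 in both panels.

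Among the other precursors made in clock neurons, ITP, whose ion transport peptide limits water loss, was lower in RNAi heads of both sexes (-0.25 in females, SE 0.03, and -0.19 in males, SE 0.03), and it passed in neither sex once centred (-0.077, adjusted p = 0.23, and -0.028, adjusted p = 0.65). Trissin, the precursor of a cysteine-rich peptide, was also lower in both, by -0.25 in females and -0.42 in males. Trissin remained lower after centring in males only (-0.26, adjusted p = 0.0001, and -0.084 in females, adjusted p = 0.32), and the difference between the sexes did not pass (adjusted p = 0.37). Dh31, sNPF and CCHa1 were lower in female RNAi heads, with log2 changes of -0.33, -0.32 and -0.28, and none of them passed centred. Dh31 is a calcitonin-like diuretic hormone that promotes waking, sNPF encodes short neuropeptide F of feeding and sleep circuits, and CCHa1 encodes CCHamide-1. In males their changes were -0.052, 0.089 and -0.12 and did not pass. NPF, the relative of vertebrate neuropeptide Y, and AstC, a somatostatin-like peptide gene, passed in males (-0.23 and -0.17) and not in females (-0.11 and -0.084), and neither passed centred.

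Of the clock output, feeding and stress peptides, SIFa was lower in RNAi heads of both sexes. SIFa (2R, 24577566 to 24578143) encodes SIFamide, which acts on sleep, courtship and appetite. It had 3.18, 9.14 and 20.9 TPM in female RNAi heads, against 6.37, 12.8 and 23.9 TPM in female control heads. Male RNAi heads had 4.68, 10.2 and 15.6 TPM, against 6.29, 14.9 and 23.6 TPM in male control heads. The ranges overlapped in both sexes, and the RNAi library was the lower in 19 of 24 pairs in females and 21 of 24 in males. The log2 change was -0.51 in females (SE 0.12, adjusted p = 0.00033) and -0.57 in males (SE 0.12, adjusted p = 6.5e-05), and centred it was -0.34 and -0.41, adjusted p = 0.010 and 0.00096. On the second day alone the male change was -0.35 and did not pass (adjusted p = 0.053), against -0.80 on the first day.

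CCHa2, whose peptide CCHamide-2 reports the nutritional state to insulin-producing cells, was lower in male RNAi heads. CCHa2 (3R, 13389059 to 13395197) had 87.7, 125 and 161 TPM in male RNAi heads, against 130, 180 and 213 TPM in male control heads. The RNAi library was the lower in 24 of 24 male pairs, though the ranges overlapped at the ends. The change was -0.56 (SE 0.08, adjusted p = 1.2e-08), and centred -0.40 (adjusted p = 0.00057). In females it was -0.099 (adjusted p = 0.28), with RNAi lower in 16 of 24 pairs. Lk (3L, 14560139 to 14560764), the leucokinin gene of fluid balance and feeding, was the low gene of this group. It had 0.87, 2.46 and 4.47 TPM in male RNAi heads, against 1.82, 3.83 and 9.80 TPM in male control heads, ranges that overlapped widely. Its male change was -0.55 (SE 0.14, adjusted p = 0.00065), centred -0.39 (adjusted p = 0.015), and its female change was 0.080 (adjusted p = 0.62). On the first day alone Lk was higher in female RNAi heads (0.43, adjusted p = 0.038), with -0.27 on the second (adjusted p = 0.17).

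The other members of this group changed less. Hug, the pyrokinin precursor of feeding circuits, was -0.49 in females (SE 0.12, adjusted p = 0.00049) and -0.34 in males (adjusted p = 0.016), and centred it passed in females only. Dh44, a corticotropin-releasing factor-like hormone that relays clock signals, was -0.41 in females (SE 0.04, adjusted p = 5e-13), lower in 23 of 24 pairs, and -0.16 in males. Centred, Dh44 remained lower in females (-0.24) and was at 0.0035 in males. Dsk, the cholecystokinin-like satiety peptide, was -0.35 in males (SE 0.05), lower in 24 of 24 pairs, and -0.12 in females, where centring turned it to 0.047. AstA, Crz and RYa did not pass in either sex. AstA encodes the satiety peptide allatostatin A, Crz the stress peptide corazonin and RYa the RYamides, and their changes were -0.080, -0.17 and -0.18 in females and 0.066, -0.12 and 0.074 in males. Centred, AstA was higher in males (0.23, adjusted p = 0.0025).

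Of the renal and glycoprotein hormones, Gpb5, the beta subunit of a hormone that binds Lgr1, was lower in female RNAi heads (-0.24), and Capa, the precursor of peptides that act on the renal tubules, was lower in male RNAi heads (-0.18). Neither passed centred. In the other sex the changes were -0.13 for Gpb5 and -0.11 for Capa.

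Proc was the only tested member that passed as higher in RNAi heads over both days without centring, and it did so in males only. Proc (2L, 7864642 to 7871432) encodes proctolin, a peptide that stimulates muscle contraction. It had 51.4, 64.5 and 85.8 TPM in male RNAi heads, against 43.9, 56.5 and 71.0 TPM in male control heads, and was higher in 22 of 24 pairs with overlapping ranges. In females it had 23.6, 36.2 and 53.2 TPM in RNAi heads, against 18.2, 27.8 and 55.6 TPM in control heads, and was higher in 15 of 24 pairs. The male change was 0.24 (SE 0.10, adjusted p = 0.029) and the female change 0.18 (SE 0.10, adjusted p = 0.093). Centred, both passed, at 0.40 (adjusted p = 0.0077) and 0.35 (adjusted p = 0.027). By day, the male change was 0.33 on the first and 0.14 on the second (adjusted p = 0.17), and the female change was -0.11 on the first (adjusted p = 0.35) and 0.47 on the second (adjusted p = 7.3e-06), and whether the days differed was not tested. Within female libraries below and above 50000 TPM of mt:lrRNA the female change was 0.38 and -0.067.

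Mip, the precursor of myoinhibitory peptides, which also bind the sex peptide receptor, was lower in RNAi heads in 24 of 24 pairs of each sex. It had 28.8, 40.9 and 56.3 TPM in female RNAi heads, against 41.6, 57.1 and 63.7 TPM in female control heads. Male RNAi heads had 35.9, 52.9 and 62.3 TPM, against 52.03, 67.3 and 78.7 TPM in male control heads, so that the ranges overlapped in both sexes. The changes were -0.37 (SE 0.06, adjusted p = 9.9e-07) in females and -0.40 (SE 0.06, adjusted p = 2e-07) in males, and centred -0.20 and -0.24, both past the test. Ms, the myosuppressin gene, and Tk, the tachykinin gene, were lower in female RNAi heads (-0.34 and -0.23), with male changes of -0.025 and -0.067 that did not pass. Ms remained lower in females after centring (-0.18, adjusted p = 0.0075) and was higher in males (0.14, adjusted p = 0.036), while Tk passed in neither. CCAP, the crustacean cardioactive peptide gene, was lower in male RNAi heads (-0.31, adjusted p = 0.034) but not after centring. FMRFa and Orcokinin did not pass in either sex, with changes between -0.17 and -0.045.

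The Nplp genes encode precursors that were found by sequencing peptides of the brain, and they are not a sequence family. Nplp2, which RefSeq also lists as IM7 and DIM7, names of an immune-induced peptide of the hemolymph, was lower in male RNAi heads. It had 5887, 8555 and 10730 TPM there, against 9416, 13640 and 15510 TPM in male control heads, and was lower in 23 of 24 pairs. The male change was -0.66 (SE 0.06, adjusted p = 7e-16), centred -0.50 (adjusted p = 6.1e-10), and it was -0.90 on the first day and -0.41 on the second. In females Nplp2 had 11780, 16180 and 23910 TPM in RNAi heads, against 13820, 16550 and 23260 TPM in control heads. These ranges nearly coincided, with RNAi lower in 12 of 24 pairs, and the change was -0.032 (adjusted p = 0.65). Nplp1, whose peptide activates the receptor guanylate cyclase Gyc76C, was -0.38 in females (SE 0.04, adjusted p = 4.8e-14), lower in 23 of 24 pairs, and -0.048 in males (adjusted p = 0.28). Centred, Nplp1 was -0.21 in females (adjusted p = 0.0058). Nplp3 and Nplp4 did not pass in either sex.

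Calls on several other members rested on some of the libraries. In females CCHa1 was -0.46 on the first day and -0.10 on the second (adjusted p = 0.30), while Tk was -0.097 (adjusted p = 0.33) and -0.37, and Dsk was -0.049 (adjusted p = 0.62) and -0.19. Trissin and Gpb5 did not pass in females on the first day (-0.14 and -0.15). Dh44 was -0.62 in females on the first day and -0.20 on the second, and Hug was -0.27 below and -0.91 at or above 50000 TPM of mt:lrRNA. In males Hug and CCAP passed on the first day (-0.51 and -0.53) and not on the second (-0.17 and -0.087), and AstC and Capa did not pass on the first (-0.080 and -0.11).

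Markers of several cell types were lower in RNAi heads. All 5 glia markers were lower in both sexes, and 7 of 8 photoreceptor markers were lower in females and 6 of 8 in males. Over all tested genes 55.7% were lower in females and 53.5% in males. The glia medians were -0.25 in females and -0.15 in males, and the photoreceptor medians -0.29 and -0.21. Those of all tested genes were -0.18 and -0.16, so the male glia median was near that of all genes. Of the 3 hemocyte markers, 2 were higher in female RNAi heads (median 0.31), where 4.70% of all tested genes were. The remaining marker, Hml, did not pass, with medians of 62.5 TPM in female RNAi heads and 70.4 TPM in female control heads. In males 1 of the 3 hemocyte markers was lower (median 0.0090). The summed TPM of the photoreceptor markers was 23560 to 34780 in male RNAi heads, against 35500 to 55000 in male control heads, which did not overlap. Of the single markers only ninaE lay apart in males, at 7831 to 12140 TPM in RNAi heads against 18130 to 31010 TPM in control heads. Arr2 overlapped, with male medians of 11170 TPM in RNAi heads and 12200 TPM in control heads. The sum therefore does not show that the whole marker set lay apart. In females the sum was 22090 to 43180 TPM in RNAi heads, against 37910 to 69560 TPM in control heads.

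In male RNAi heads the summed fat body markers were lower, as Nplp2 was. The summed TPM of the 5 markers (Lsp2, Pepck, Fbp1, apolpp and Mtp) was 1229, 1922 and 2440 in male RNAi heads, against 2733, 3256 and 3820 in male control heads, ranges that did not overlap. Of the 4 tested, 3 were lower in male RNAi heads, and Fbp1 reached at most 0.47 TPM in any library. Mtp had medians of 86.1 TPM in male RNAi heads and 83.8 TPM in male controls. Of the single markers only Pepck lay apart in males, at 56.6 to 343.4 TPM in RNAi heads against 424.7 to 817.5 TPM in control heads. Lsp2 (4.23 to 338.1 against 287 to 800.4 TPM) and apolpp (1047 to 1997 against 1597 to 2632 TPM) overlapped. The sum of the fat body markers therefore does not show that all of them lay apart. In females the sums were 1584, 3301 and 6365 TPM in RNAi heads, against 2359, 3584 and 6131 TPM in control heads, and overlapped. The summed TPM of the 8 neuron markers was 3844, 4360 and 5668 in male RNAi heads, against 3639, 4494 and 5322 in male control heads. The neuron markers of females were lower in RNAi heads for 6 of 8 (median -0.18). The part of these markers in the changes of the members was not tested.

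**Figure D3:**
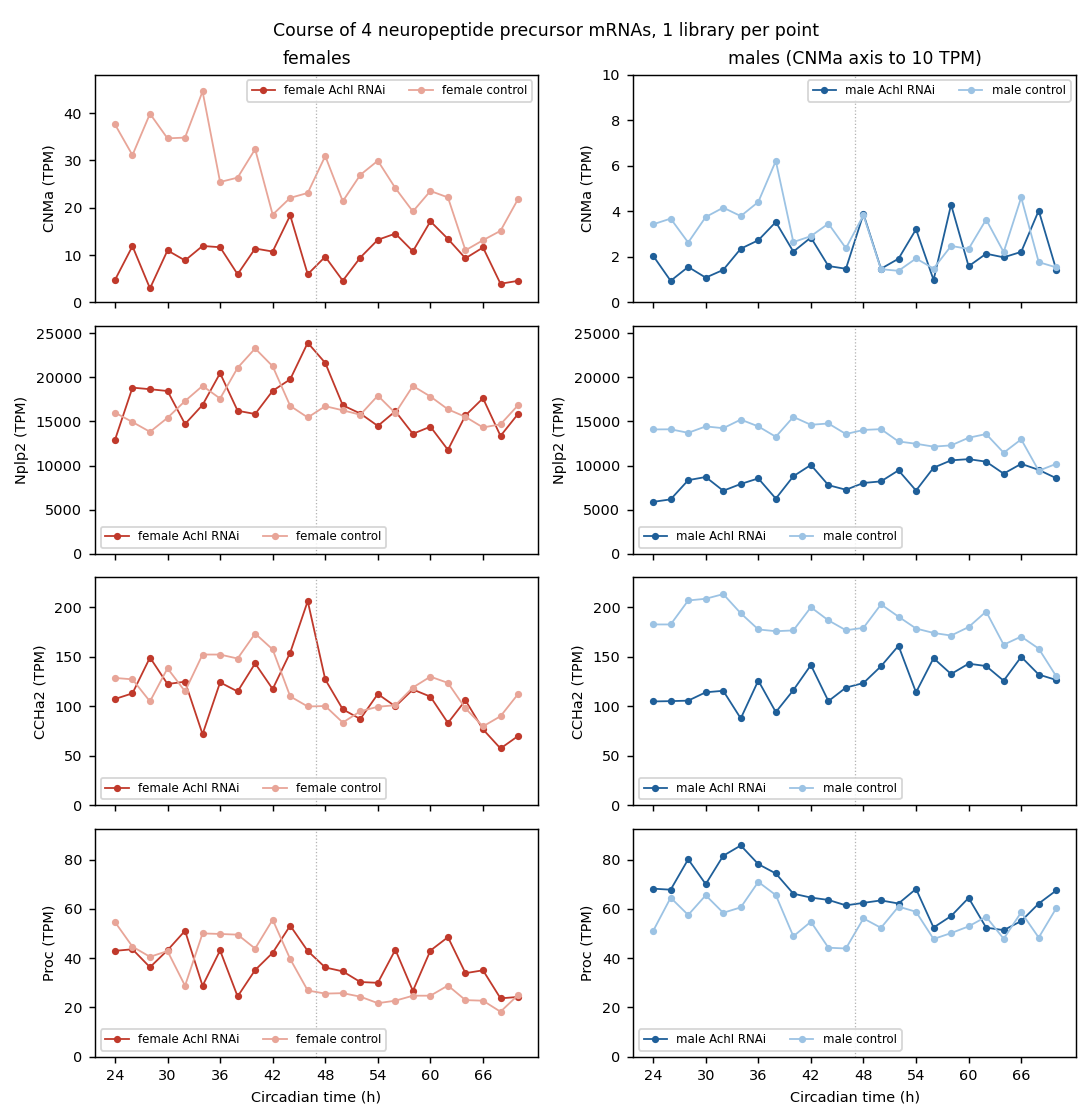
TPM of CNMa, Nplp2, CCHa2 and Proc (vertical axes) against circadian time in hours, with 1 library per point, in females (left, RNAi and control) and males (right, RNAi and control). The dotted line divides the 2 days, and the male CNMa axis ends at 10 TPM. CNMa is lower in RNAi in every female pair, and Nplp2 and CCHa2 are lower in RNAi in 23 and 24 of 24 male pairs.

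The 2 RNAi effects were then compared directly between the sexes. The difference, the effect in females minus that in males, passed for 10 of the 30 members, with 4 above and 6 below 0, where 5.75% and 8.37% of all tested genes were. Above 0, that is, with the larger fall in males, were Nplp2 (0.63), Lk (0.63), CCHa2 (0.46) and Dsk (0.23). Below 0, with the larger fall in females, were CNMa (-1.05), sNPF (-0.41), Nplp1 (-0.33), Ms (-0.32), Dh31 (-0.28) and Dh44 (-0.25). Centred, sNPF and Dh31 no longer passed, and 4 remained on either side, with 8.09% and 6.25% of all tested genes. On the second day alone only Nplp2 passed above 0, and CNMa, Nplp1 and Tk passed below it. For the members lower in RNAi heads, 8 of the 15 called in females were among the 15 called in males: CNMa, Dh44, Dsk, Hug, ITP, Mip, SIFa and Trissin. That is 53.3% of each list, where of all tested genes 67.4% of those lower in females and 70.1% of those lower in males were shared. After centring 2 of 7 were shared, Mip and SIFa (28.6% of each list, and 47.1% and 29.3% over all tested genes). No member had RNAi and control libraries that lay fully apart in either sex. Over all tested genes, 0.284% lay wholly above and 0.132% wholly below the controls in females, and 0.681% and 0.577% did in males.

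The question of the second comparison was how female heads differed from male heads in each genotype. In RNAi heads 18 of the 30 members were lower in females and 5 were higher, where 41.3% and 32.7% of all tested genes were. In control heads 22 were lower in females and 6 were higher, where 40.5% and 27.7% of all tested genes were. The median log2 change of the members was -0.25 in RNAi heads, beside -0.043 for all tested genes, and -0.36 in controls, beside -0.050. Centring left 17 lower and 7 higher in RNAi heads (39.9% and 38.4% of all tested genes) and 21 lower and 6 higher in controls (39.7% and 33.8%). All 18 members that were lower in female RNAi heads were among the 22 lower in female controls (100% and 81.8% of the lists, where 87.8% and 89.6% of all tested genes were shared). With the female libraries at or above 50000 TPM of mt:lrRNA alone, 18 were lower and 4 higher in RNAi heads and 22 were lower and 5 higher in controls. These were 9 RNAi and 10 control libraries, all from the first day. Here and below, each female set was compared with the male libraries of both days, so days were not matched. The shares of all tested genes are not given for this split.

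CNMa showed the largest difference between the sexes of all 30 members and was higher in females. It had 2.98, 10.8 and 18.4 TPM in female RNAi heads, against 0.95, 2.02 and 4.29 TPM in male RNAi heads, and females were higher in 23 of 24 pairs. In controls it had 11.02, 24.8 and 44.6 TPM in females, against 1.39, 2.78 and 6.21 TPM in males. The lowest female control library lay above the highest male one, while the RNAi groups overlapped. The log2 change was 1.71 (SE 0.13, adjusted p = 7.1e-22) in RNAi heads and 2.76 (SE 0.13, adjusted p = 1.5e-34) in controls, and the means differed 4.49-fold and 8.73-fold. CNMaR, the receptor of its peptide, was lower in females in both genotypes (-0.91, SE 0.06, in RNAi heads and -0.72, SE 0.06, in controls).

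The other genes of the clock neuron group were lower in female controls. sNPF had 35.9, 54.8 and 84.9 TPM in female RNAi heads, against 127, 147 and 191 TPM in male RNAi heads. Its control values were 53.6, 65.0 and 114 TPM in females, against 106, 140 and 164 TPM in males. The sexes lay fully apart in RNAi heads and overlapped slightly in controls, and the changes were -1.31 (SE 0.08, adjusted p = 1.2e-27) and -0.90 (SE 0.08, adjusted p = 4.5e-18). The control change of sNPF was -0.56 on the first day and -1.24 on the second, and -1.18 and -0.49 with the female libraries below and above 50000 TPM of mt:lrRNA. Dh31 had 37.3, 48.1 and 63.9 TPM in female RNAi heads, against 83.3, 102 and 127 TPM in male RNAi heads. Its control values were 51.2, 60.4 and 80.5 TPM in females, against 87.0, 106 and 128 TPM in males. Every female library was below every male one in both genotypes, with changes of -1.05 (SE 0.05) in RNAi heads and -0.78 (SE 0.05) in controls. AstC had 58.4, 104 and 155 TPM in female RNAi heads, against 140, 157 and 196 TPM in male RNAi heads, with a slight overlap and a change of -0.61 (SE 0.06). Among controls it had 87.9, 111 and 133 TPM in females, against 157, 180 and 208 TPM in males, groups that lay fully apart, with a change of -0.70 (SE 0.06). ITP was -0.48 in RNAi heads and -0.42 in controls with no overlap in either, and NPF was -0.22 and -0.34. CCHa1 had 1.92, 4.46 and 7.28 TPM in female RNAi heads, against 4.76, 7.12 and 9.44 TPM in male RNAi heads, which overlapped, and its change was -0.51 there and -0.35 in controls. Trissin did not pass in RNAi heads (-0.12) and was -0.29 in controls.

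Of the feeding and stress peptides, AstA had 16.4, 26.7 and 30.5 TPM in female RNAi heads, against 38.7, 44.7 and 58.5 TPM in male RNAi heads. Its control values were 20.1, 27.3 and 33.95 TPM in females, against 39.2, 44.1 and 49.8 TPM in males. The sexes lay fully apart in both genotypes, with changes of -0.82 (SE 0.05) in RNAi heads and -0.68 (SE 0.05) in controls. CCHa2 was -0.18 in RNAi heads (adjusted p = 0.040), a change that did not pass centred and was 0.18 on the first day. In control heads it had 79.6, 114 and 173 TPM in females, against 130, 180 and 213 TPM in males, which overlapped, with a change of -0.64 (SE 0.08, adjusted p = 3.3e-11). Dh44 had 29.2, 35.8 and 47.7 TPM in female RNAi heads, against 49.2, 59.4 and 65.6 TPM in male RNAi heads, groups that lay fully apart. Its change was -0.70 (SE 0.04) there and -0.45 in controls. RYa had 0, 1.11 and 5.54 TPM in female RNAi heads, against 0.70, 2.43 and 4.97 TPM in male RNAi heads, which overlapped, with a change of -0.61 (SE 0.17) there and -0.36 in controls. Neither change passed on the first day alone, and with the mt:lrRNA set as a term they were -0.40 and -0.16, neither past the test. Hug was lower in females in both genotypes (-0.45 in RNAi heads and -0.29 in controls). Lk and Dsk did not pass in RNAi heads (0.21 and -0.069) and were lower in female controls (-0.42 and -0.30). SIFa did not differ past the threshold in either genotype (-0.062 in RNAi heads and -0.13 in controls). Crz did not pass in RNAi heads (0.15) and was higher in female controls (0.19, adjusted p = 0.034), where it was -0.0065 on the first day. Centred, Crz was higher in females in both genotypes.

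**Figure D4:**
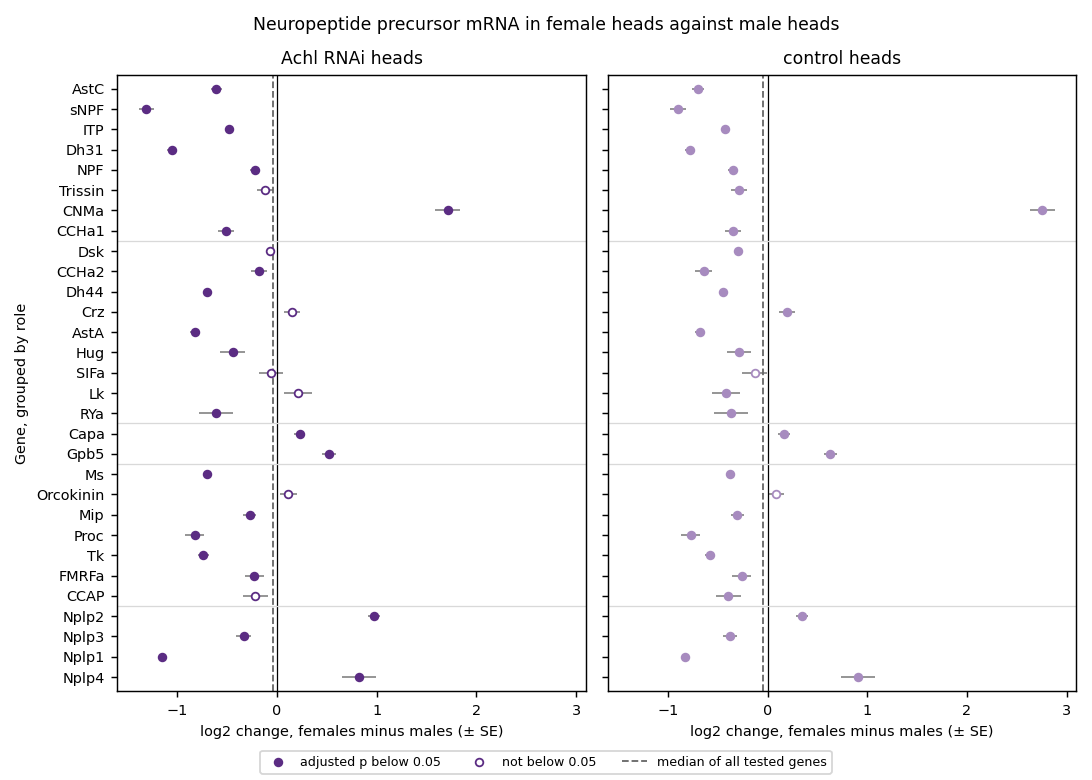
Log2 change (horizontal axis, females minus males, with SE) of the 30 tested genes in Achl RNAi heads and control heads. Filled points passed the test at an adjusted p of 0.05, and the dashed line is the median of all tested genes, -0.043 in RNAi heads and -0.050 in controls. Most members lie to the left of the line, while CNMa, Nplp2, Nplp4, Gpb5 and Capa lie to the right of 0 in both panels.

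Both hormone genes of renal and glycoprotein type were higher in females. Gpb5 had 22.4, 30.8 and 35.9 TPM in female RNAi heads, against 16.3, 21.1 and 24.6 TPM in male RNAi heads. Its control values were 24.8, 37.8 and 48.8 TPM in females, against 15.7, 22.4 and 32.3 TPM in males. The sexes overlapped in both genotypes, with changes of 0.52 (SE 0.07, adjusted p = 4.5e-11) in RNAi heads and 0.63 (SE 0.07, adjusted p = 3e-14) in controls. Capa was 0.23 in RNAi heads and 0.17 in controls, and the control value was -0.0039 when TPM were rescaled without the mitochondrially encoded genes.

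Without centring, the myotropic peptide genes were lower in females or did not pass. Centred, 1 of the 7 tested was higher in female RNAi heads. Proc had 23.6, 36.2 and 53.2 TPM in female RNAi heads, against 51.4, 64.5 and 85.8 TPM in male RNAi heads. In controls it had 18.2, 27.8 and 55.6 TPM in females, against 43.9, 56.5 and 71.0 TPM in males. The ranges overlapped at their ends, and the changes were -0.83 (SE 0.10) in RNAi heads and -0.77 (SE 0.10) in controls. The control change of Proc was -0.39 on the first day and -1.15 on the second, and -1.11 and -0.29 with the female libraries below and above 50000 TPM of mt:lrRNA. Tk had 17.3, 23.7 and 34.9 TPM in female RNAi heads, against 35.8, 41.0 and 46.1 TPM in male RNAi heads. Among controls it had 22.7, 27.8 and 38.3 TPM in females, against 37.6, 43.5 and 50.8 TPM in males. The sexes lay fully apart in RNAi heads and overlapped in controls, with changes of -0.74 (SE 0.05) and -0.57 (SE 0.05). Ms had 124, 160 and 198 TPM in female RNAi heads, against 235, 264 and 301 TPM in male RNAi heads, again fully apart, with a change of -0.70 (SE 0.04) there and -0.38 in controls. Mip and FMRFa were lower in females in both genotypes, with -0.28 and -0.23 in RNAi heads and -0.30 and -0.26 in controls. CCAP did not pass in RNAi heads (-0.22, adjusted p = 0.12) and was lower in female controls (-0.39, adjusted p = 0.0052), and Orcokinin passed in neither.

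The Nplp genes split. Nplp1 had 23.8, 29.9 and 34.6 TPM in female RNAi heads, against 60.3, 67.0 and 81.3 TPM in male RNAi heads. Its control values were 31.2, 38.2 and 48.8 TPM in females, against 63.1, 69.6 and 76.0 TPM in males. Every female library was below every male one in both genotypes, with changes of -1.16 (SE 0.04, adjusted p = 2.2e-45) in RNAi heads and -0.83 (SE 0.04, adjusted p = 9.1e-35) in controls. Nplp2 was higher in females, by 0.98 (SE 0.06, adjusted p = 1.5e-26) in RNAi heads, where its lowest female library, 11780 TPM, lay above its highest male library, 10730 TPM. In controls it was higher by 0.35 (SE 0.06, adjusted p = 4e-07). Nplp4 had 2.86, 9.08 and 21.6 TPM in female RNAi heads, against 1, 4.58 and 9.46 TPM in male RNAi heads, with a change of 0.82 (SE 0.17). Within the female libraries at or above 50000 TPM of mt:lrRNA it was 0.36 and did not pass (adjusted p = 0.14). In controls Nplp4 had 4.69, 10.4 and 21.4 TPM in females, against 1.81, 5.47 and 9.67 TPM in males, with a change of 0.90 (SE 0.17, adjusted p = 2.4e-06), and the sexes overlapped in both genotypes. Nplp3 was lower in females (-0.34 in RNAi heads and -0.38 in controls). In all, 1 member lay wholly above and 8 wholly below the males in female RNAi heads, where 1.70% and 10.1% of all tested genes did, and 1 lay above and 5 below in female controls, where 2.18% and 9.16% did.

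Some of these calls rested on part of the female libraries. With only those below 50000 TPM of mt:lrRNA, Hug (-0.038 in RNAi heads and -0.11 in controls), FMRFa (-0.038 and -0.059) and, in controls, Lk (-0.18) and Trissin (-0.064) did not pass. With those at or above it, these were -1.12 and -0.55 for Hug, -0.57 and -0.55 for FMRFa, -0.75 for Lk and -0.62 for Trissin. CCAP in controls (-0.27) and Nplp3 in RNAi heads (-0.14) did not pass with those at or above it. AstC in RNAi heads (-0.32) and Gpb5 in controls (0.38) passed there with smaller changes than over all libraries.

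General neuron and glia markers and gene length moved with these differences. All 8 neuron markers were lower in females in both genotypes, with medians of -1.03 in RNAi heads and -0.79 in controls, and so were all 5 glia markers (-0.56 and -0.41). Of all tested genes, 41.3% were lower in RNAi heads and 40.5% in controls. Photoreceptor markers did not follow, with 3 of 8 lower and 2 higher in each genotype (medians -0.062 and 0.014). The summed TPM of the neuron markers was 1217, 2050 and 3169 in female RNAi heads, against 3844, 4360 and 5668 in male RNAi heads. In controls it was 1805, 2388 and 3648 TPM in females, against 3639, 4494 and 5322 TPM in males. Among all tested genes, the sex difference fell with gene length (Spearman's rho across genes -0.33 in RNAi heads and -0.29 in controls), and among the 30 members rho was -0.59 and -0.58, where genes share the libraries and are not replicates. After the length trend of each library was removed, 21 members were lower and 4 higher in female RNAi heads, and 22 were lower and 4 higher in female controls. Shares of all tested genes are not given for that fit, so these counts cannot be read as particular to the members. Of the 4 tested fat body markers, apolpp and Mtp were higher in females in both genotypes (0.74 and 0.67 in RNAi heads), and Lsp2 was lower in female controls. The part of all these markers in the result was not tested.

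The partners of the peptides were examined through lists of 15 processing genes and 34 receptor genes, all of which were tested. In female RNAi heads 11 of the 15 processing genes and 25 of the 34 receptor genes were lower, where 55.7% of all tested genes were, and none was higher. Among male RNAi heads 6 and 8 were lower, where 53.5% of all tested genes were. Their medians were -0.19 and -0.20 in females and -0.059 and -0.078 in males. Centred, 1 processing gene was higher and 2 lower in females, and 3 were higher and 1 lower in males. Of the receptor genes, 1 was higher and 2 lower in females, and 4 were higher and 0 lower in males. In the same centred fit, 11.2% of all tested genes were higher and 11% lower in females. In males 14.7% were higher and 17.7% lower. Pal1, an enzyme of peptide amidation, was lower in female RNAi heads also when centred (-0.50, and -0.33 centred, adjusted p = 3.9e-07). Dh44-R2 and TrissinR, receptors for the peptides of Dh44 and Trissin, were likewise lower in female RNAi heads (-0.37 and -0.42, and -0.20 and -0.25 centred). Between the sexes, 12 processing and 33 receptor genes were lower in female RNAi heads, where 41.3% of all tested genes were. In female controls 10 and 30 were lower, where 40.5% were, and 1 processing gene was higher. The medians were -0.43 and -0.43 in RNAi heads and -0.45 and -0.33 in controls. The prohormone convertase gene amon, which cuts most precursors, was -1.08 (SE 0.05, adjusted p = 1e-35) in RNAi heads and -0.80 (SE 0.05, adjusted p = 7e-27) in controls. The carboxypeptidase gene svr was -0.78 and -0.66 (SE 0.03 each).

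The series was sampled to follow daily rhythms, and none of the 30 members passed the test for a 24 h rhythm in any group. At an unadjusted p under 0.05 there were 7 in female RNAi heads, 3 in female controls, 2 in male RNAi heads and 1 in male controls, where 10.8, 9.22, 15.1 and 5.64% of all tested genes were under it. After adjustment 1.40, 1.60, 1.02 and 1.26% of all tested genes were called rhythmic in these groups, in the same order. In female RNAi heads Nplp3 had the lowest p, with a peak-to-trough ratio of 1.45 (SE 0.15) and a peak at CT22.6 of the daily cycle (adjusted p = 0.11). Trissin had the same ratio of 1.45 with a peak at CT19.7 (adjusted p = 0.16). When each day was given its own mean, Nplp3 (adjusted p = 0.0085) and Trissin (adjusted p = 0.017) passed in female RNAi heads. In female controls Capa had the lowest p, with a ratio of 1.31 and a peak at CT6.2 (adjusted p = 0.13). In male RNAi heads SIFa had a ratio of 1.66 with a peak at CT18.6 (adjusted p = 0.28), and in male controls Gpb5 had 1.26 with a peak at CT21.2 (adjusted p = 0.88).

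CNMa had the lowest p for a change of rhythm with RNAi in females, but did not pass. Its ratio was 1.82 (SE 0.32) with a peak at CT11.9 in female RNAi heads, against 1.76 (SE 0.31) with a peak at CT5.6 in female controls, and the difference had an unadjusted p of 0.0041 and an adjusted p of 0.42. None of the 30 members passed a rhythm difference. At an unadjusted p under 0.05 there were 7 for RNAi against control in females and 1 in males, where 7.44% and 1.89% of all tested genes were under it. There were 5 for females against males in RNAi heads and 2 in controls, where 4.83% and 2.70% were. After adjustment these tests called, of all tested genes, 0.0189% for RNAi in females, 0% for RNAi in males, 0.00946% for sex in RNAi heads and 0.00946% for sex in controls.

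The last comparison set the second sampled day against the first within each group. In female RNAi heads 11 members were higher and 8 lower on the second day, where 50.1% and 8.41% of all tested genes were. In female controls 9 were higher and 9 lower, where 47.3% and 12.4% were. In male RNAi heads 5 were higher and 0 lower (12.9% and 0.530% of all tested genes). In male controls 0 were higher and 0 lower in limma (0.00946% and 0.0946%), and at an unadjusted p under 0.05 there were 6 higher and 3 lower, where 1.86% and 4.52% of all tested genes were. Centred, 4 were higher and 13 lower in female RNAi heads (22.1% and 29.2% of all tested genes) and 8 were higher and 16 lower in female controls (24.7% and 26.5%). In males 1 was higher and 2 lower in RNAi heads (3.39% and 2.81%), and 1 was higher and 0 lower in controls (0.114% and 0.151%).

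Cell type markers moved with the day in females. On the second day 5 of 8 neuron markers were lower and 7 of 8 photoreceptor markers higher in female RNAi heads (medians -0.24 and 0.40), and 7 of 8 were lower and 7 of 8 higher in female controls (-0.33 and 0.39). Of all tested genes, 8.41% were lower and 50.1% higher in female RNAi heads, and 12.4% were lower and 47.3% higher in female controls. The part of the markers in the result was not tested.

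In female controls 7 members passed with a log2 change of at least 0.5 between the days. Proc had 18.2, 24.5 and 28.9 TPM on the second day, against 26.8, 44.3 and 55.6 TPM on the first, a change of -0.83 (SE 0.10, adjusted p = 6.8e-10). sNPF had 53.6, 60.2 and 65.95 TPM on the second day, against 61.1, 98.8 and 114 TPM on the first (-0.59, SE 0.09). CNMa had 11.02, 22.02 and 30.9 TPM on the second day, against 18.6, 31.8 and 44.6 TPM on the first (-0.51, SE 0.17). These 3 fell and their days overlapped. Trissin had 69.6, 80.1 and 93.5 TPM on the second day, against 36.4, 57.4 and 67.8 TPM on the first (0.56, SE 0.09), and its days did not overlap. Crz had 61.8, 76.0 and 93.8 TPM on the second day, against 36.5, 49.7 and 66.5 TPM on the first (0.55, SE 0.09). Orcokinin had 100, 131 and 154 TPM on the second day, against 52.9, 93.3 and 125 TPM on the first (0.53, SE 0.09). Crz and Orcokinin were higher with overlapping days, and so was Lk, at 0.90, 3.91 and 6.63 TPM on the second day, against 0.88, 1.82 and 4.79 TPM on the first (0.69, SE 0.18).

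In female RNAi heads Hug had 17.1, 23.4 and 37.2 TPM on the second day, against 5.56, 13.2 and 32.2 TPM on the first (0.91, SE 0.13, adjusted p = 9.8e-08). CCAP had 1.01, 2.23 and 3.63 TPM on the second day, against 2.03, 4.31 and 5.81 TPM on the first (-0.63, SE 0.16, adjusted p = 0.00084). Hug was higher and CCAP lower with overlapping days. In male RNAi heads Crz, Orcokinin, Nplp2, Mip and CCHa2 were higher on the second day by 0.25 to 0.30, and of these Mip passed centred. The day and the mt:lrRNA set nearly coincided in females, since 12 of 12 second-day libraries and 3 (RNAi) or 2 (control) of 12 first-day libraries were below 50000 TPM. With the set as a term in the fit, 5 members were higher and 4 lower in female RNAi heads, and 0 of 30 passed in female controls. The shares of all tested genes in that fit are not given here, so these counts cannot be read as particular to the members. Because they nearly coincided, the day and the set cannot be told apart in either female group.

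**Figure D5:**
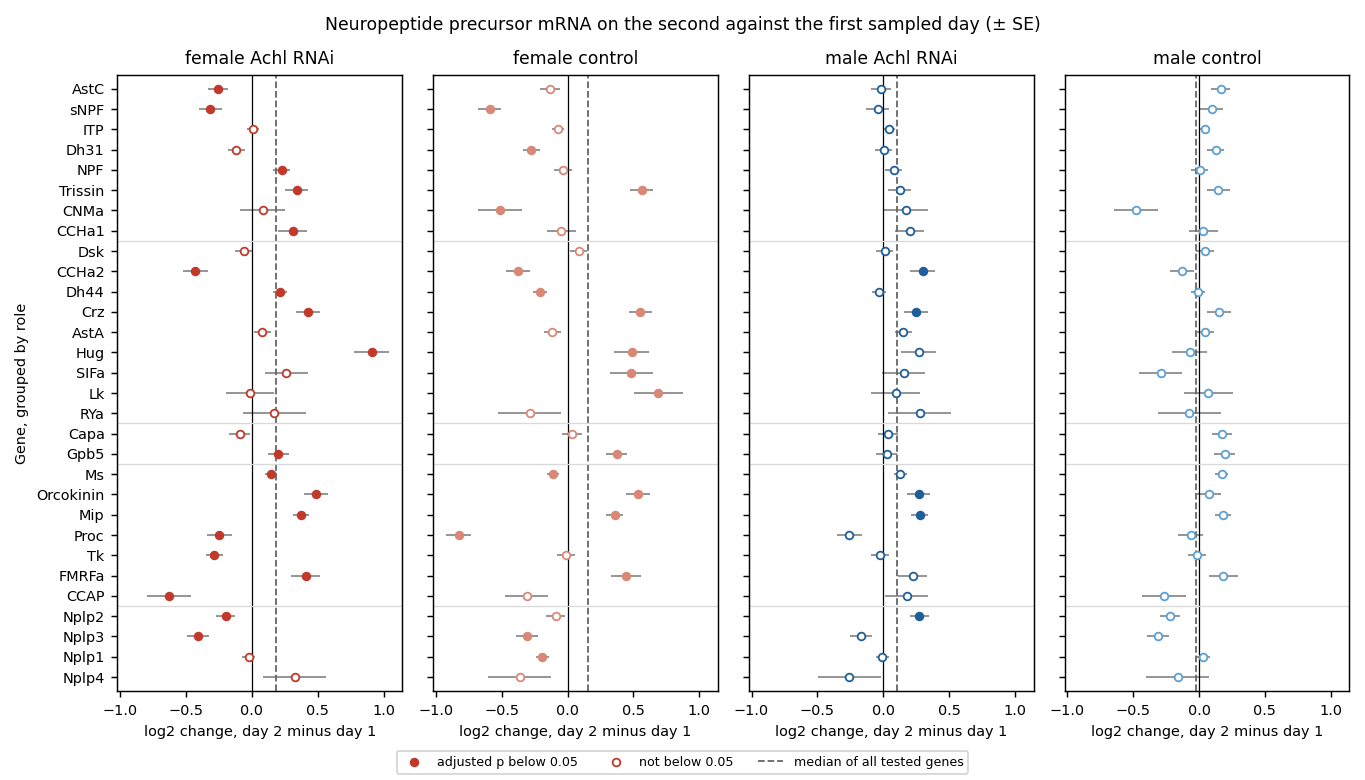
Log2 change (horizontal axis, second day minus first day, with SE) of the 30 tested genes in female Achl RNAi, female control, male Achl RNAi and male control heads. Filled points passed the test at an adjusted p of 0.05, and the dashed line is the median of all tested genes. The points spread most in the female panels, and no point is filled in male controls.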

How the data were processed

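Heads were sequenced with a stranded mRNA kit, per the labels' protocols. Reads were aligned with STAR and quantified with RSEM against dm6 (per the submitters' processing notes), and the sources used here give no versions. The authors deposited TPM, 1 value per gene and library, which sum to 1000000 within 0.79 in each library, so that a rise of abundant transcripts lowers all others. The members and the lists were chosen with earlier results of these data known.

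The 33 symbols were looked up in the table, and 32 were found. Genes were kept if 24 or more libraries reached 1 TPM, and log2 of TPM plus a pseudocount of 1 was taken, so fold changes of low genes are understated. One limma 3.58.1 model (R 4.3.3, robust, with trend) covered the 96 libraries; each group had its own mean and 24 h cosine and sine terms. Benjamini-Hochberg adjustment ran over all 10568 genes, threshold 0.05. Tests of change are two-sided. Day comparisons used a mean per group and day. Members that passed with a log2 change of at least 0.5 are given with lowest, median and highest TPM (Mip was added after its values were seen). Lists are described by counts and medians. The fits were tested on simulated data. Positions come from Ensembl annotation of dm6, and figures from Python 3.11.15 and matplotlib 3.10.9. No sequences are printed, as no sequence was used here. Alternatives were centring, rescaling without mitochondrially encoded genes, a pseudocount of 0.1, no filter, single days, CT as a block, the mt:lrRNA set as a term or each set alone, a mean per day for rhythms and, chosen after seeing the data, removal of the length trend and each mt:lrRNA set alone in the comparisons of the sexes.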

Additional observations from a re-analysis of the deposited data

Results flagged for a closer look

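The effect of Achl RNAi differed between the sexes for 10 members by a test of the difference itself, taken as females minus males on the log2 scale. CNMa stood at -1.05 (SE 0.18, limma, adjusted p = 9.7e-06), with RNAi lower in 24 of 24 pairs in females and 18 of 24 in males. Nplp2 stood at 0.63 (SE 0.09, adjusted p = 5.4e-08), with RNAi lower in 12 of 24 pairs in females and 23 of 24 in males. Lk stood at 0.63 (SE 0.20, adjusted p = 0.019) and CCHa2 at 0.46 (SE 0.12, adjusted p = 0.0023), and Dsk at 0.23 (SE 0.07, adjusted p = 0.010). On the other side, sNPF stood at -0.41 (SE 0.11, adjusted p = 0.0055), with RNAi lower in 18 of 24 female pairs and higher in 18 of 24 male pairs. Nplp1 stood at -0.33 (SE 0.05, adjusted p = 3.3e-06), Ms at -0.32 (SE 0.06, adjusted p = 1.2e-05), Dh31 at -0.28 (SE 0.07, adjusted p = 0.0032) and Dh44 at -0.25 (SE 0.06, adjusted p = 0.0022).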

How the results depend on the processing

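The comparisons between the sexes kept both their counts of called members within 1.5 times under each alternative run. Centred, the RNAi counts were 1 higher and 7 lower in females and 3 higher and 7 lower in males, and removing the length trend gave the same 4 counts. In females 1 member was also higher with CT as a block, on the first day, on the second day, with the mt:lrRNA set as a term and within either set. In males 0 were higher on the second day. The sex difference of the RNAi effect passed for 1 member above and 3 below 0 on the second day, among them Tk, which did not pass over both days. For rhythms in female RNAi heads, 1 member passed with TPM rescaled without mitochondrially encoded genes, 2 with a mean per day and 1 with the set as a term. For the days, female RNAi heads had 4 higher and 13 lower centred, 6 and 13 rescaled, 5 and 4 with the set as a term, and 5 and 13 without the length trend. Female controls had 16 lower centred, 15 rescaled, 16 without the length trend, and 0 and 0 with the set as a term. Male RNAi heads had 1 higher and 2 lower centred, 2 and 1 rescaled, 0 and 2 without the length trend, and 3 higher with no filter. Male controls had 1 higher centred and without the length trend. The causes were not tested.

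Single members turned their sign as follows (log2). For RNAi in females, Dsk was at 0.047 centred and 0.099 at or above 50000 TPM of mt:lrRNA. For RNAi in males, Dh44 was at 0.0035 centred and 0.0079 without the length trend, which also gave 0.042 for AstC and 0.031 for Capa, and CNMa was at 0.0066 on the second day. For sex in RNAi heads, CCHa2 was at 0.064 at or above 50000 TPM of mt:lrRNA, 0.18 on the first day and 0.039 with the set as a term. For sex in controls, Capa was at -0.0039 rescaled, and Crz was at -0.17, -0.0065 and -0.087 under those 3 settings. For the days in female RNAi heads, Ms was at -0.011 rescaled, -0.078 centred and -0.083 without the length trend, Dh44 at -0.0092 and -0.0011 in the last 2, and Gpb5 at -0.023 centred. With the set as a term, AstC was at 0.0066, sNPF at 0.19 and Proc at 0.076 there, and in female controls Dh31 was at 0.035 and SIFa at -0.0044. Of 134 calls on single members, 102 kept direction and threshold centred, 116 rescaled, 132 with a pseudocount of 0.1 and 129 with no filter. With CT as a block 91 of 92 did. Without the length trend 101 of 134 did, on the first day 80 of 92 and on the second day 72 of 92. Fewest held with the mt:lrRNA set as a term, 78 of 113, where 28 were weaker and 7 reversed. Depth is unknown, so counting error in the lowest members (RYa, Lk, CCAP) cannot be given.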
